A study of Mus musculus with 16 samples.

Results

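The aminoacyl-tRNA synthetase genes are described here: 36 nuclear genes, 20 for cytosolic enzymes and 16 for mitochondrial enzymes, of the 46983 genes in the count table. The rule lists them by name and uses no measured value, and all 36 were found in the table. All 36 also passed the filter of at least 1 CPM (counts scaled to the library total) in at least 10 of the 16 libraries, which 12805 genes passed. The libraries came from 46C mouse embryonic stem cells (ESCs), a Sox1-GFP reporter line of strain 129Ola kept undifferentiated with LIF. Cells received a siRNA against RAM (the activating subunit of the mRNA cap methyltransferase RNMT, gene symbol Ramac) or a non-targeting control siRNA for 48 hr. Cytoplasmic lysate was sequenced as input, and pooled sucrose gradient fractions 17 to 22 were sequenced as polysomes. This gave 4 groups of 4 libraries: control input, RAM siRNA input, control polysomes and RAM siRNA polysomes. All groups share the cell line, the transfection reagent and cycloheximide, and the knockdown is transient and in a single line.

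Aminoacyl-tRNA synthetases join each amino acid to its tRNA, the step that sets how a codon is read. Cytosolic enzymes serve translation on cytoplasmic ribosomes, whereas mitochondrial enzymes are made in the cytoplasm from their own nuclear genes, imported, and charge the tRNAs of the mitochondrial genome. Exceptions are Gars and Kars, each of which encodes the glycyl or lysyl enzyme of both compartments, and the mitochondrial glutaminyl-tRNA, which is made through glutamyl-tRNA by an amidotransferase. The enzymes fall into catalytic class I and class II, and 8 of the cytosolic ones sit in the multisynthetase complex. Many cytosolic synthetase genes are known targets of ATF4, the transcription factor of the amino acid response.

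Library totals lay between 16647523 and 20147833 counts. Ramac was at 11.03, 10.48, 11.22 and 11.98 CPM in control input and at 3.22, 2.76, 3.24 and 3.26 CPM in RAM siRNA input, so the labels matched the knockdown (log2 fold change -1.84). All 7 ESC markers were over 1 CPM in every group, and their summed level ran from 2639 to 2841 CPM in control input and from 2274 to 2438 CPM in RAM siRNA input. The 4 endoderm markers summed to 3.73 to 5.06 CPM in control and 5.77 to 7.08 CPM in RAM siRNA input, and the 5 fibroblast markers to 12.4 to 14.7 and 15.5 to 18.7 CPM. Neural markers overlapped between those groups, at 78.0 to 88.6 against 84.5 to 97.6 CPM. The part of these differences in the results below was not tested. RAM siRNA input replicate 4 and RAM siRNA polysome replicate 2 stood furthest from the other libraries of their groups, with a chi-square per gene of at least 23.1 and 123 against any of them, so member calls are also given without them.

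In control input the cytosolic synthetase mRNAs stood above the mitochondrial ones. Levels between genes are compared per kilobase of the principal transcript (RPKM). The median over the 20 cytosolic genes was 78.0 ± 4.64 RPKM (SD, n = 4 libraries) and over the 16 mitochondrial genes 17.7 ± 1.03. Gars, for the glycyl enzyme, was highest at 261 ± 10.1 RPKM, followed by Nars (asparaginyl) at 215 ± 18.6, Eprs, which carries glutamyl and prolyl activities in a single chain, at 125 ± 8.48, and Lars (leucyl) at 115 ± 8.03. The lowest were the mitochondrial Lars2 at 9.31 ± 1.505, Mars2 (methionyl) at 5.96 ± 0.522, Nars2 at 5.47 ± 0.293 and Wars2 (tryptophanyl) at 1.62 ± 0.174 RPKM.

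The cytosolic and mitochondrial genes overlapped in the middle of the order, where 4 mitochondrial genes lay above the lowest cytosolic gene, Farsa, at 28.7 ± 1.97 RPKM. They were Tars2 (65.8 ± 2.71), Yars2 (62.5 ± 1.49), Rars2 (39.6 ± 2.26) and Aars2 (35.4 ± 2.93 RPKM). Neighbours in the order were further apart than the sum of their SDs in 11 of 35 cases, and from Kars down to Dars no neighbours were. For 13 amino acids there is a separate gene in each compartment, and the cytosolic gene was the higher of the pair for all but threonine. The median ratio of the 13 pairs was 3.06, from 57.4 ± 6.36 for Wars over Wars2 and 39.3 ± 2.60 for Nars over Nars2 down to 1.27 ± 0.135 for Yars over Yars2 and 0.896 ± 0.113 for Tars over Tars2. Single places in the order depended on the length used. Per kilobase of all annotated exons Tars was at 39.9 and Tars2 at 22.8 RPKM, Eprs moved from place 3 to place 17 at 33.9 RPKM, and 7 mitochondrial genes lay above Farsa, still the lowest cytosolic gene at 11.5 RPKM.

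**Figure D1:**
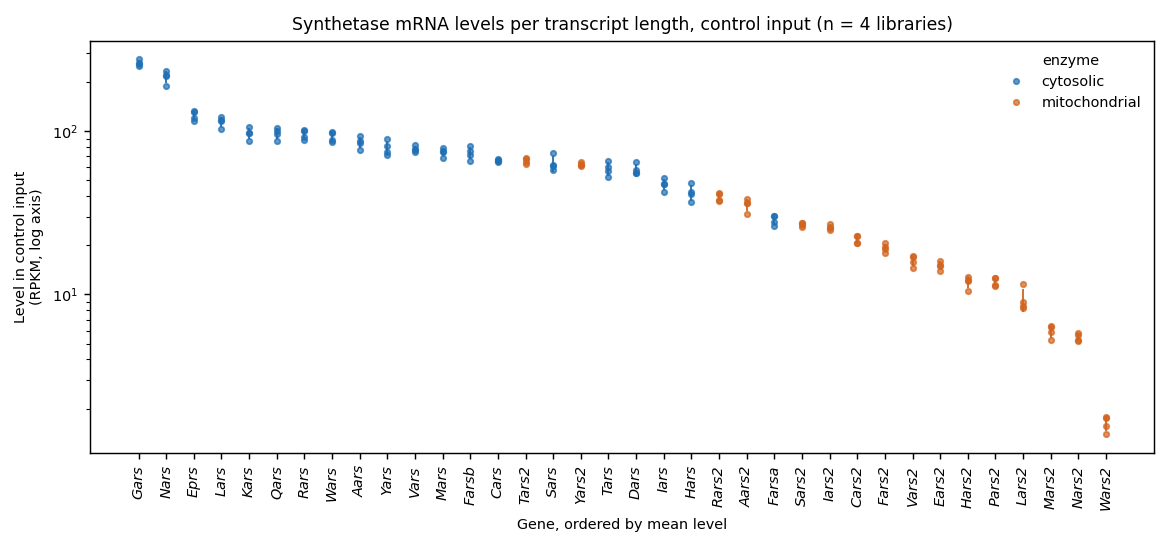
Level of each of the 36 synthetase mRNAs in control input (RPKM, log axis; points are the 4 libraries, bars the mean ± SD), ordered by mean. Cytosolic genes fill the 14 highest places and mitochondrial genes the 12 lowest, with Gars at 261 and Wars2 at 1.62 RPKM.

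RAM siRNA changed synthetase mRNAs in input by little, and how many passed the test depended on whether the pairing of the libraries entered the fit. In the edgeR quasi-likelihood test with Benjamini-Hochberg adjustment over all 12805 genes, 1 of 36 members was lower (Wars) and 1 was higher (Ears2), that is 2.78% in each direction against 5.94% of all genes lower and 6.95% higher. With the replicate number as a block, 11 of 36 members were lower (30.6%, against 19% of all genes) and 6 higher (16.7%, against 20.3%). No member moved by more than 0.32 on the log2 scale. The median log2 fold change was -0.08 for the cytosolic and 0.03 for the mitochondrial genes, against 0.00 for all genes tested. Cytosolic mRNA summed to 5677 ± 246 CPM in control input and to 5425 ± 321 CPM after RAM siRNA, and mitochondrial mRNA to 1022 ± 37.4 and 1027 ± 39.8 CPM (SD, n = 4 each). The ranges of the libraries overlapped for both sums, but the cytosolic sum was lower in 4 of 4 same-numbered pairs and the mitochondrial sum in 2 of 4. In such bulk libraries fewer cells of a kind and less RNA per cell cannot be told apart.

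**Figure D2:**
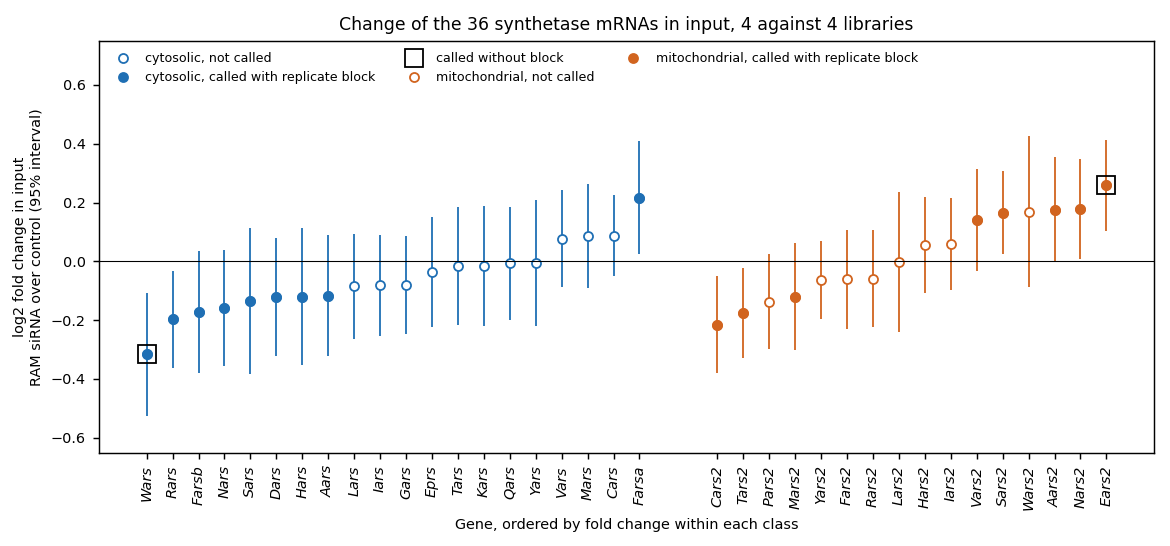
log2 fold change of each synthetase mRNA in input, RAM siRNA over control (points; bars, 95% intervals of the fit without the block), ordered within the cytosolic and mitochondrial genes. Filled points passed an adjusted p of 0.05 with the replicate block and squares mark Wars (-0.32) and Ears2 (0.26), which also passed without it; 16 of 20 cytosolic points lie below 0 and 8 of 16 mitochondrial points do.

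Wars, which encodes the cytosolic tryptophanyl enzyme, changed most. It was at 177, 160.3, 157 and 181 CPM in control input and at 133, 125, 121 and 162 CPM in RAM siRNA input. All 4 pairs of libraries with the same number went down, although RAM siRNA replicate 4 lay above the lowest controls. The log2 fold change was -0.32 (SE 0.10, edgeR adjusted p = 0.0492, and 1.49e-05 with the replicate block), and the 2-sided exact permutation test over libraries gave p = 0.0857.

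Rars, for the arginyl enzyme of the multisynthetase complex, was at 210.4, 193, 187 and 215 CPM in control and 179, 169, 164 and 189 CPM after RAM siRNA. It was lower in 4 of 4 pairs with 1 RAM siRNA library above the lowest control, and passed the test with the block alone (log2 fold change -0.20, SE 0.08; edgeR adjusted p = 0.112, and 0.000767 with the block). Farsa, the catalytic subunit of the cytosolic phenylalanyl enzyme, went the other way, at 50.8, 55.1, 48.0 and 55.5 CPM in control and 58.1, 61.5, 53.6 and 70.0 CPM after RAM siRNA (log2 fold change 0.22, SE 0.09; edgeR adjusted p = 0.132, and 0.00155 with the block). Its partner subunit Farsb was at -0.17 (SE 0.10; edgeR adjusted p = 0.265, and 0.00305 with the block), so the mRNAs of the 2 subunits of this enzyme had opposite signs, a difference that was not tested.

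The study names WARS, CARS and LARS as regulated by RAM when it describes the proteins that fell. That was mass spectrometry of separate cultures given a pool of siRNAs, so it measured protein and not these libraries. For the transcripts of the proteins that fell, taken as a group, the study reports significant repression in its RNA sequencing. Of the mRNAs of the 3 enzymes named, Cars and Lars did not pass the test with or without the block. Cars, the cysteinyl enzyme, was at 217, 209, 211 and 215 CPM in control and 223, 219, 234 and 229 CPM after RAM siRNA. The groups did not overlap, and the difference was small (log2 fold change 0.09, SE 0.06, 95% interval -0.05 to 0.22). Its interval with the block was 5.9e-05 to 0.17 (edgeR adjusted p = 0.104). Lars was at 467, 462, 412 and 487 CPM in control and 434, 436, 387 and 467 CPM after RAM siRNA, lower in 4 of 4 pairs with groups that overlapped (log2 fold change -0.08, SE 0.08, 95% interval -0.26 to 0.09). Its interval with the block was -0.17 to -0.00017 (edgeR adjusted p = 0.104).

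Over all cytosolic genes, 16 of 20 had a log2 fold change below 0, where 6385 of 12805 genes tested did. In every same-numbered pair 10 of 20 were lower and 3 of 20 higher. The share of all genes that moved one way in every pair was not counted, so these pair counts have no background to be set against. With the block, 8 cytosolic genes were lower (40%): Aars, Dars, Farsb, Hars, Nars, Rars, Sars and Wars, which encode the alanyl, aspartyl, phenylalanyl, histidyl, asparaginyl, arginyl, seryl and tryptophanyl enzymes. Farsa alone was higher. Of these 8, 6 are class II enzymes, out of 10 cytosolic class II genes, and 2 are class I, out of 10. In the multisynthetase complex 2 of 8 were lower with the block (Dars and Rars), that is 25%, and 6 of the 12 other cytosolic genes were (50%), where 19% of all genes were lower. The difference between these sets was not tested. Gars and Kars, which serve both compartments, were at -0.08 and -0.01 and passed in neither fit.

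Ears2 was the mitochondrial gene that changed most. It encodes the mitochondrial glutamyl enzyme, which also makes the glutamyl-tRNA that is turned into glutaminyl-tRNA. It was at 30.7, 31.1, 33.0 and 28.3 CPM in control input and at 35.2, 37.5, 37.3 and 37.2 CPM in RAM siRNA input. Every RAM siRNA library lay above every control library (log2 fold change 0.26, SE 0.07; edgeR adjusted p = 0.0343, and 0.00113 with the block; exact permutation p = 0.0286, the smallest that 4 against 4 allows).

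Cars2 and Nars2 had groups that did not overlap and passed the test with the block alone. Cars2 was at 39.0, 39.1, 43.6 and 43.6 CPM in control and 34.3, 38.9, 35.3 and 33.9 CPM after RAM siRNA (log2 fold change -0.22, SE 0.08; edgeR adjusted p = 0.0828, and 0.00674 with the block). Nars2 was at 19.6, 21.4, 19.8 and 21.8 CPM in control and 21.9, 23.0, 24.0 and 24.5 CPM after RAM siRNA (log2 fold change 0.18, SE 0.08; edgeR adjusted p = 0.163, and 0.0353 with the block). With the block, 3 of 16 mitochondrial genes were lower (Cars2, Mars2 and Tars2) and 5 of 16 were higher (Aars2, Ears2, Nars2, Sars2 and Vars2). That is 18.8% lower and 31.2% higher, against 19% and 20.3% of all genes.

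Mitochondrial genes thus went both ways, with 8 below 0 and 8 above. In every pair 5 were lower and 5 higher, again without a count over all genes. Input groups that did not overlap were found for 3 of 36 members with lower levels (Cars2, Pars2 and Tars2), against 8.91% of all genes, and for 4 of 36 with higher levels (Cars, Ears2, Nars2 and Sars2), against 9.11%. In 9 of the 13 amino acid pairs the mitochondrial gene had the higher log2 fold change. The widest gap was that of tryptophan, with Wars at -0.32 and Wars2 at 0.17 (SE 0.12, not past the test in either fit), and cysteine went the opposite way, with Cars at 0.09 and Cars2 at -0.22.

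Hars and Hars2 lie head to head on opposite strands of chromosome 18 and share 195 bases of annotated exon. Hars was at 81.8, 83.9, 73.4 and 95.7 CPM in control and 72.7, 75.6, 66.7 and 93.1 CPM after RAM siRNA, lower in 4 of 4 pairs (log2 fold change -0.12, SE 0.11; edgeR adjusted p = 0.512, and 0.0329 with the block). Hars2 was at 40.4, 42.9, 41.1 and 35.1 CPM in control and 42.3, 40.9, 42.3 and 40.2 CPM after RAM siRNA, and did not pass in either fit (log2 fold change 0.06, SE 0.08). The library kit keeps strand, but the strand setting of the counting was not given in the sources used here, so reads from the shared bases may be counted to either gene. The same holds for Iars2, of whose exon length 22.9% lies opposite Rab3gap2. Aars shares 14.3% of its exon length with Exosc6 on the same strand.

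In the fit without the block, the input counts depended on single libraries. No library was left out of the fit with the block. Without RAM siRNA replicate 4, 4 members were lower (Farsb, Rars, Sars and Wars; 11.1%, against 8.97% of all genes) and Ears2 was higher (2.78%, against 10.6%). Without control replicate 3 the calls were Wars and Ears2, and without any other library neither passed, with log2 fold changes of -0.41 to -0.27 for Wars and 0.22 to 0.29 for Ears2 over all 8 removals.

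**Figure D3:**
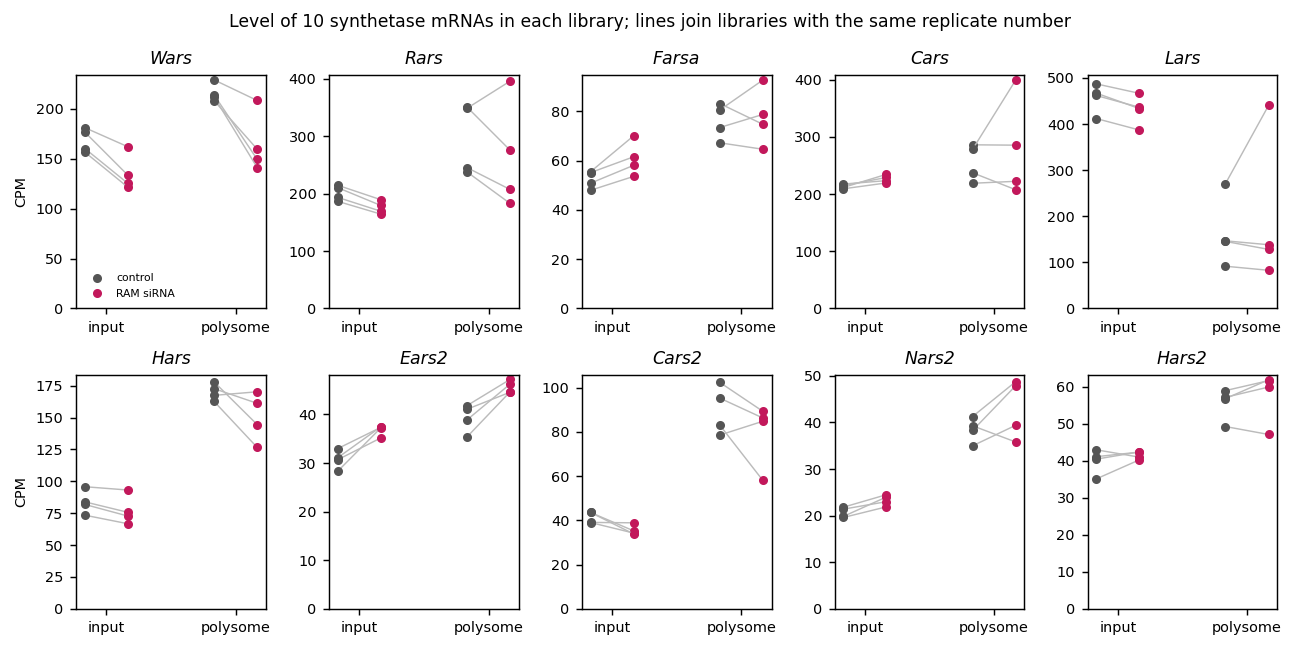
Level (CPM) of 10 synthetase mRNAs in each of the 16 libraries, control in grey and RAM siRNA in magenta, with lines joining libraries of the same replicate number. Wars falls in all 4 input pairs and Ears2 rises in all 4, and polysome replicate 2 of RAM siRNA stands above the rest for Lars (440.3 CPM).

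In polysomes no member passed the test without the block (edgeR quasi-likelihood, adjusted p under 0.05), where 0.0234% of all genes were lower and 0% higher; 2 members, Wars and Lars2, had an unadjusted p under 0.05, and DESeq2 and limma-voom called 0 members. With the block, the same 2 were lower (5.56%, against 4.97% of all genes) and none was higher (against 9.68%). The median log2 fold change was -0.03 for cytosolic and 0.00 for mitochondrial genes, against 0.06 for all genes tested. Polysome groups did not overlap for 0 of 36 members with lower levels, against 3.76% of all genes, and for 1 of 36 with higher levels (Ears2), against 2.61%. Without RAM siRNA replicate 2 the edgeR test again called 0 members, 2 members had an unadjusted p under 0.05, 0.133% of all genes were lower and 0.242% higher, and members with a log2 fold change below 0 went from 19 to 28 of 36. That fit had no block and kept control replicate 2. In the fit of all polysome libraries with the block, 20 of 36 members were below 0.

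Wars was at 214, 229, 212 and 208 CPM in control polysomes and at 149, 208, 141 and 159.7 CPM in RAM siRNA polysomes. It was lower in 4 of 4 pairs, and only RAM siRNA replicate 2 reached the lowest control (log2 fold change -0.39, SE 0.17; edgeR adjusted p = 0.520, and 0.0283 with the block). Ears2 was at 41.1, 38.9, 41.8 and 35.4 CPM in control and 44.6, 46.3, 47.2 and 44.7 CPM after RAM siRNA, higher in 4 of 4 pairs with groups that did not overlap (log2 fold change 0.22, SE 0.13; edgeR adjusted p = 0.749, and 0.186 with the block; exact permutation p = 0.0286). Both genes thus had the sign they had in input.

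In the fit without the block, Eprs, Lars and Rars spread too widely in polysomes to resolve changes of the size seen in input. The SEs of their log2 fold changes were 0.52, 0.52 and 0.27. With the block Eprs was at 0.13 (SE 0.15), Lars at 0.07 (SE 0.14) and Rars at -0.20 (SE 0.12), and none passed. The median SD of log2 CPM over all members was 0.170 in control and 0.251 in RAM siRNA polysomes, against 0.103 and 0.119 in input. Some members did not spread more, such as Kars, at 0.0779 and 0.0729 in polysomes against 0.117 and 0.1685 in input. Eprs was at 216, 364, 127 and 174 CPM in control and 196, 633, 129.7 and 155 CPM after RAM siRNA, and Lars at 145, 271, 91.6 and 147 CPM and 128, 440.3, 82.8 and 138 CPM. RAM siRNA replicate 2 was the highest library for both, and without it the log2 fold change of Lars turned from 0.27 to -0.49. That removal was made in the fit without the block. It kept control replicate 2, the highest control library for both genes. Rars was at 351, 349, 238 and 245 CPM in control and 276, 396, 183 and 207 CPM after RAM siRNA, with replicates 1 and 2 above 3 and 4 in each group.

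Members with longer transcripts spread more between polysome libraries. Over the 36 members the Spearman correlation of transcript length with the SD of log2 CPM was 0.57 in control and 0.50 in RAM siRNA polysomes, against 0.27 and -0.015 in the input groups. These are descriptions over genes of the same libraries. With replicates 1 and 2 alone 13 of 36 members had a polysome log2 fold change below 0, and with replicates 3 and 4 alone 28 of 36, with 0 members called in either pair of replicates.

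The remaining members of the named set were within the spread of the polysome libraries. Cars was at 286, 278, 237 and 219 CPM in control and 285, 399, 207 and 222 CPM after RAM siRNA (log2 fold change 0.13, 95% interval -0.39 to 0.64). Farsa was at 83.1, 80.5, 67.2 and 73.4 CPM and at 74.7, 92.7, 64.6 and 78.7 CPM (log2 fold change 0.03, a sign that turned with library size scaling). Hars was at 178, 167, 163 and 173 CPM and at 144, 170.2, 127 and 161 CPM (log2 fold change -0.18, SE 0.15).

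None of these 3 genes had groups apart, and the same was true of the mitochondrial ones. Cars2 was at 78.6, 83.1, 102 and 95.3 CPM in control and 84.9, 58.1, 89.3 and 86.3 CPM after RAM siRNA (log2 fold change -0.17, SE 0.18). Nars2 was at 41.3, 38.3, 39.3 and 35.0 CPM and at 48.8, 47.9, 35.8 and 39.4 CPM (log2 fold change 0.16, SE 0.16). Hars2 was at 56.7, 57.1, 58.9 and 49.2 CPM and at 61.8, 59.9, 61.6 and 47.1 CPM (log2 fold change 0.05, SE 0.15, a sign that also turned with library size scaling).

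Lars2, for the mitochondrial leucyl enzyme, had the largest polysome difference of the 36 and was picked out after its values were seen. It was at 83.9, 49.4, 225 and 379 CPM in control polysomes and at 46.4, 66.1, 51.3 and 85.8 CPM in RAM siRNA polysomes. Control replicates 3 and 4 stood above all other libraries, and the groups overlapped. In input its groups overlapped, at 44.9, 33.1, 34.8 and 32.3 CPM in control and 39.2, 32.7, 38.6 and 34.3 CPM with RAM siRNA (log2 fold change 0.00). In polysomes the log2 fold change was -1.56 (SE 0.56; edgeR adjusted p = 0.412) without the block and -1.21 (SE 0.30; edgeR adjusted p = 0.0141) with it, -0.25 in replicates 1 and 2 alone and -2.14 in replicates 3 and 4 alone.

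The noncoding gene Gm42418, also picked after its values were seen, lies in a stretch of ribosomal RNA sequence in the mouse assembly. It was at 573, 159, 1713 and 2276 CPM in control polysomes and at 215, 286, 293 and 595 CPM in RAM siRNA polysomes (log2 fold change -1.76, SE 0.69, edgeR adjusted p = 0.466, and -1.33, SE 0.37, adjusted p = 0.0230 with the block). The order of the 4 control libraries was the same as for Lars2, and that of the RAM siRNA libraries was not. In input Gm42418 was at 1359, 1735, 1424 and 1290 CPM in control and 1692, 2440, 2064 and 1710 CPM with RAM siRNA, a rise that passed the test (log2 fold change 0.44, edgeR adjusted p = 0.0437, and 3.01e-07 with the block), where the Lars2 groups overlapped. Gm26917, the noncoding gene next to Gm42418 on the same strand, was higher in input too (0.52, edgeR adjusted p = 0.0172). In polysomes it did not follow Lars2, at 1417, 769, 1068 and 1517 CPM in control and 2015, 697, 1544 and 1766 CPM with RAM siRNA (log2 fold change 0.34, edgeR adjusted p = 0.927, and 0.28, adjusted p = 0.195, with the block). The part of ribosomal RNA in the Lars2 counts was not tested.

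**Figure D4:**
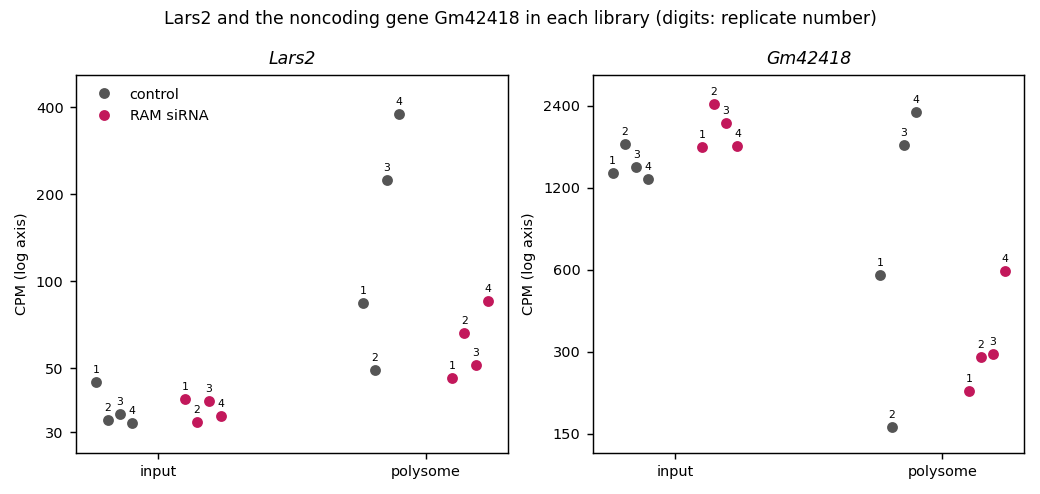
Level of Lars2 and of the noncoding gene Gm42418 in each library (CPM, log axes; digits are replicate numbers; control grey, RAM siRNA magenta). In polysomes control replicates 3 and 4 stand highest for both genes, at 225 and 379 CPM for Lars2 and 1713 and 2276 CPM for Gm42418.

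The interaction of fraction and siRNA asks whether RAM siRNA altered polysome loading beyond the mRNA level. It is the log2 fold change in polysomes minus that in input, with all 16 libraries scaled together. The fold changes given above were scaled within each fraction, so subtracting them does not give the interaction values. The interaction passed the test for 0 of 36 members without the block (edgeR quasi-likelihood, 0% of all genes lower and 0% higher) and for 0 with it (0% and 0%). This block was shared, with 1 term per replicate number for both fractions. A block within each fraction also called 0 members, and over all genes tested 2 were lower and 0 higher. Lars was at 0.19 (SE 0.43) with the shared block and 0.11 (SE 0.17) with the block within each fraction. Without a block, Lars2 alone had an unadjusted p under 0.05, and DESeq2 and limma-voom called 0 members. The Lars2 value was -1.59 (SE 0.60, edgeR unadjusted p = 0.0168, adjusted p = 1.00). The medians were -0.03 for both the cytosolic and the mitochondrial genes and 0.00 for all genes tested. Single libraries turned the sign of the cytosolic median, which ran from -0.27 to 0.12 over the removals: 33 of 36 members were below 0 without polysome RAM siRNA replicate 2 and 7 of 36 without input RAM siRNA replicate 4. These removals were made without the block and kept the control library of the same number. In fits of all libraries, 27 of 36 members were below 0 with the shared block and 29 with the block within each fraction. Scaling and filter mattered too with all libraries kept. Members below 0 were 25 in the edgeR fit without the block, 15 with DESeq2 or RLE scaling, 9 with no filter and 29 with limma-voom. Wars was at -0.12 (SE 0.21) and Ears2 at -0.09 (SE 0.14). With all 16 libraries in 1 fit, Wars was at -0.31 in input and -0.43 in polysomes, and Ears2 at 0.26 and 0.17.

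Against input, control polysomes held more synthetase mRNA than the average gene. Of the 36 members 28 were higher in control polysomes than in control input (77.8%, against 33.1% of all genes) and 2 were lower (5.56%, against 34.3%). With the block the counts of members were again 28 and 2, against 35.1% and 37.2% of all genes. The median log2 ratio was 0.50 for cytosolic and 0.99 for mitochondrial genes, with 0.00 for all genes tested, to which the scaling centres the ratio. All 16 mitochondrial genes were above 0, and 14 passed, the exceptions being Mars2 (0.17, SE 0.13) and Wars2 (0.25, SE 0.14).

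The 2 members that were lower were Eprs (-1.37, SE 0.27, adjusted p = 0.000878 in edgeR) and Lars (-1.37, SE 0.27). Both are subunits of the multisynthetase complex, but most of its enzymes were higher. Of the 8, 2 were lower (25%, against 34.3% of all genes) and 5 higher (62.5%, against 33.1%). Aars (-0.29), Iars (-0.19), Vars (-0.25) and Tars (0.37) did not pass, and the other 14 cytosolic genes were higher, from Cars at 0.36 (SE 0.12) and Qars (glutaminyl) at 0.39 (SE 0.16) to Gars at 1.08 (SE 0.12) and Hars at 1.13 (SE 0.12). Without control polysome replicate 2, Aars and Vars were lower too, which made 4.

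These 6 genes have the longest transcripts of the cytosolic set, at least 3980 bases against at most 3570 in the other 14. The Spearman correlation of transcript length with the log2 ratio was -0.69 over the 20 cytosolic genes, -0.44 over the 16 mitochondrial genes and -0.40 over 12123 protein-coding genes tested. These correlations describe genes measured in the same 8 libraries. Mitochondrial transcripts of at least 3980 bases were 4 in number and differed among themselves. Vars2, of 4425 bases, was at 1.08 (SE 0.12) and Iars2, of 5471 bases, at 0.97 (SE 0.16), whereas Wars2, of 4410 bases, at 0.25 and Mars2, of 11294 bases, at 0.17 lay below Tars. In 10 of the 13 amino acid pairs the mitochondrial gene had the higher ratio, the exceptions being Hars, Mars and Wars, which stood above Hars2, Mars2 and Wars2. Lars2 had the highest ratio (2.44, SE 0.51), with the wide library spread given above.

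**Figure D5:**
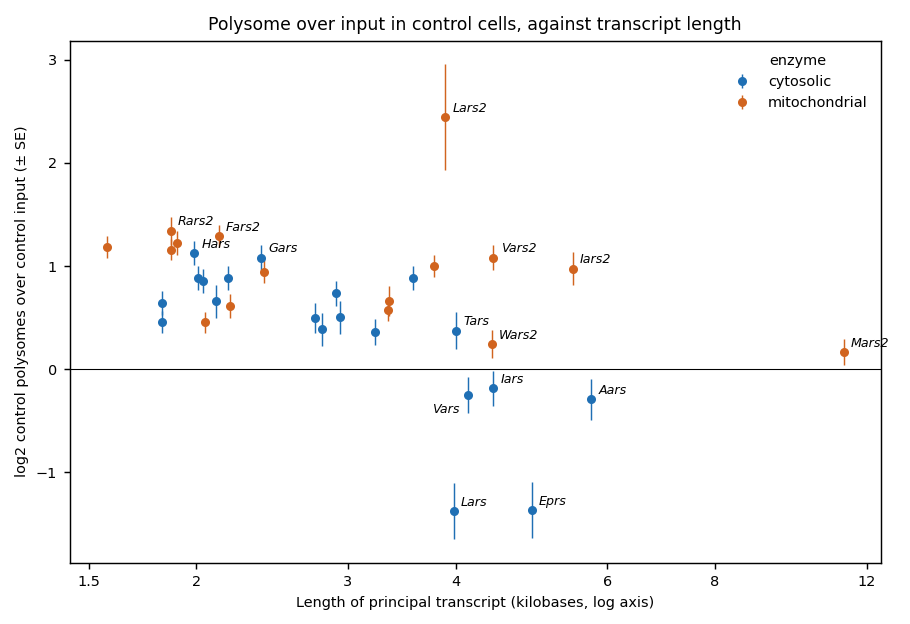
log2 ratio of control polysomes over control input (points ± SE, n = 4 libraries a group) against the length of the principal transcript (log axis) for the 36 synthetase genes. Cytosolic genes fall below 0 only among the longer transcripts, with Eprs and Lars at -1.37, whereas all mitochondrial genes lie above 0.

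Genes that work with the synthetases were described from lists of the multisynthetase scaffold, the mitochondrial amidotransferase and formyltransferase, proofreading, tRNA maturation and export, sensing of uncharged tRNA, and amino acid supply. Of the 3 scaffold genes (Aimp1, Aimp2 and Eef1e1) none passed in input without the block, and with it Aimp1 was lower (-0.17, edgeR adjusted p = 0.00391) and Eef1e1 higher (0.19, edgeR adjusted p = 0.00829). Of the 4 genes of mitochondrial glutaminyl- and formylmethionyl-tRNA synthesis (Qrsl1, Gatb, Gatc and Mtfmt) none passed either, with a median of 0.11, and with the block 2 were higher (Qrsl1, edgeR adjusted p = 0.0164, and Mtfmt, 0.0357). Of 4 proofreading genes 3 were tested (Aarsd1 was below the filter) and 1 was higher in either fit. Among 5 genes of tRNA maturation and export, 1 was lower and 2 were higher without the block. Lists of 3 to 5 genes are too short to set against the shares over all genes, which were 5.94% lower and 6.95% higher without the block and 19% and 20.3% with it.

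Xpot, the exporter of tRNA from the nucleus, was lower, at 285, 293, 280 and 307 CPM in control and 223, 226, 221 and 239 CPM after RAM siRNA (log2 fold change -0.36, SE 0.07, edgeR adjusted p = 0.00526). Elac2, which cuts the 3′ end of tRNA precursors, was higher at 136, 127, 137 and 122 against 187, 161, 175 and 151 CPM (0.37, SE 0.08, edgeR adjusted p = 0.0117). Neither gene had overlapping groups, and their changes were larger than that of any synthetase. Ptrh2, a peptidyl-tRNA hydrolase, was also higher (0.24, SE 0.07, edgeR adjusted p = 0.0418), as was Dtd2, which removes mischarged amino acids from tRNA (0.38, SE 0.11, edgeR adjusted p = 0.0475).

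None of the 4 genes listed for sensing of uncharged tRNA and its response passed without the block, and Atf4 alone did with it. They are Eif2ak4, Gcn1, Impact and Atf4. Atf4 was at 297, 309.7, 278 and 331 CPM in control and 227, 261, 239 and 283 CPM after RAM siRNA, lower in 4 of 4 pairs with overlapping groups (log2 fold change -0.27, SE 0.09; edgeR adjusted p = 0.0628, and 5.12e-05 with the block). Of 16 genes of amino acid supply, many of them ATF4 targets, 1 was lower (Mthfd2, of mitochondrial folate metabolism, -0.27, SE 0.07, edgeR adjusted p = 0.0258) and 0 were higher, so that the lower share, 6.25%, was near that of all genes (5.94%). With the block 3 were lower (Mthfd2, Slc7a11 and Trib3) and 3 higher (Shmt2, Slc7a5 and Slc3a2), 18.8% each way against 19% and 20.3% of all genes.

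The element TGATGNAA, the core of the site that ATF4 binds with C/EBP partners, was searched on both strands of the RefSeq promoter windows (build GRCm38.p6, 250 bases before to 50 after each start), as the only motif. A window was given for 13 cytosolic and 14 mitochondrial members, leaving Cars, Hars, Lars, Nars, Rars, Vars, Wars, Hars2 and Pars2 without. The element was in 5 of 13 cytosolic genes (38.5%) and 0 of 14 mitochondrial genes, against 4.5% of 27025 genes with a window and 2.7% of 9736 such genes tested. A match of letters is a description, not a bound site. 1 match in each of these 5 genes is shown because such matches set the cytosolic windows apart from the mitochondrial ones, with 11 bases on either side, 5′ to 3′ on the strand of the gene, with the element in capitals. They lie at chr8:111033840-111033869 (+) for Aars, chr6:55037960-55037989 (+) for Gars, chr13:49682126-49682155 (+) for Iars, chr15:11399655-11399684 (-) for Tars and chr4:129189895-129189924 (+) for Yars.
Aars: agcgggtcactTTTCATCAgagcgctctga
Gars: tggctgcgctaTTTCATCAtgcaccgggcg
Iars: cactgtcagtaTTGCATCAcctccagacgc
Tars: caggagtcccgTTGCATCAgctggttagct
Yars: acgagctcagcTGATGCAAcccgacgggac
In Yars the element reads on the strand of the gene and in the other 4 genes on the opposite strand, so that the capitals there show its reverse complement. Counted from 0 at the start, the first base of the element is at 9 in Aars, -30 in Gars, 7 in Iars, -15 in Tars and 3 in Yars.

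The 5 genes with the element were not the ones that changed most in input. Their log2 fold changes ran from -0.12 (Aars) to -0.01 (Yars) with a median of -0.08, against a median of -0.03 over the 8 cytosolic genes with a window and no match, and of -0.12 over the 7 without a window, Wars among them. Of the 5, Aars passed the test with the block and none passed without it.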

How the data were processed

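The authors sequenced ribosomal RNA-depleted total RNA of the 16 libraries, aligned reads to mm10 with STAR 2.5.1b and deposited raw htseq-count gene counts. The submitters' processing notes also name bcl2fastq and edgeR. The strand setting of the counting was not given in the sources used here. Gene names were taken from GENCODE for 46488 of the 46983 genes. Counts of genes with at least 1 CPM in at least 10 libraries (12805) were scaled by TMM and tested with edgeR 4.0.16 (quasi-likelihood, Benjamini-Hochberg over all genes tested, threshold 0.05) in R 4.3.3, following the filter of the study's methods. Intervals are 95%. Exact permutation tests were 2-sided. Printed CPM were scaled by TMM within each fraction, and RPKM divide by the principal transcript's length.

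Replicate numbers in the labels were taken to pair the libraries. Every correlation of same-numbered deviations from the group means was over 0.1, with a mean of 0.471 between the input groups and 0.755 between the polysome groups. For different numbers the mean was -0.154 in input (at most 0.0982) and -0.249 in polysomes (at most 0.551). That 0.551, of control replicate 1 with RAM siRNA replicate 2, was above the 0.520 of replicate 1 in both polysome groups. A fit with the number as a block was therefore given beside the counts of members it changed, and beside most of the counts of partner genes. In simulated input counts with 200 changed genes among 12805, a log2 change of 0.5 was called in 65% and of 1 in 97% of cases. In simulated polysome counts the shares were 0% and 4%. The simulated libraries were unpaired, with the spread of the fit without the block, and were tested without it. These shares therefore do not apply to the fit with the block.

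Values in every library were given for members past the threshold without the block, the 3 per class with the largest input fold change, Wars, Cars, Lars, Hars and Hars2. The rule for members uses no measured value, but the gene family and the other lists were chosen with earlier results of these data known. Alternatives were DESeq2 1.42.0, limma-voom 3.58.1, other scalings and filters, the block and each library left out. For the interaction a block within each fraction was also fitted. Some values of marker and partner genes, with or without the block, and some promoter matches are not reported here.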

Additional observations from a re-analysis of the deposited data

Results flagged for a closer look

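Of 144 sets of 4 libraries (36 members in 4 groups), 9 held a library whose gap to the nearest of the others exceeded Dixon's 95% limit for 4 values (0.829 of the range), where chance flags about 1 in 20. RAM siRNA polysome replicate 2 was the library in 4 of them. Its level was 633 CPM for Eprs against 129.7 to 196 CPM in the other 3 libraries, 440.3 for Lars against 82.8 to 138, 533 for Vars against 191 to 247, and 58.1 for Cars2 against 84.9 to 89.3 CPM.

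RAM siRNA input replicate 4 was high for Dars (138 CPM against 109 to 110.1) and Sars (258 CPM against 187 to 195). RAM siRNA input replicate 1 was low for Ears2 (35.2 CPM against 37.2 to 37.5), still above all controls. In polysomes, control replicate 4 was low for Sars2 (93.6 CPM against 107 to 109) and RAM siRNA replicate 4 was low for Hars2 (47.1 CPM against 59.9 to 61.8). No member moved one way in all 4 input pairs and the opposite way in all 4 polysome pairs.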

How the results depend on the processing

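Without the block, the input calls of Wars and Ears2 lay near the threshold. DESeq2, limma-voom and RLE scaling kept both. With library size scaling alone and with all 16 libraries in 1 fit, 0 members were lower and 0 higher. With no filter on low counts 0 were higher, and with a mean of at least 10 CPM 0 were lower. Adjusted p-values ran from 1.49e-05 to 0.429 for Wars and from 0.00113 to 0.236 for Ears2 over all settings, lowest with the block. The replicate block gave 11 lower and 6 higher in input and 2 lower in polysomes, and changed no other count of members called. In the fits without the block, leaving out 1 library gave 0 to 4 lower and 0 to 1 higher in input, and 2 to 4 lower in control polysomes against control input. The same removals moved the median in input from -0.12 to -0.051 (cytosolic) and from -0.027 to 0.059 (mitochondrial), and the cytosolic median of the loading change from -0.27 to 0.12. With no filter the mitochondrial median of polysomes over input was 1.12, where the median of all genes fell to -0.34.

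In polysomes Farsa turned to -0.032 with library size scaling, -0.019 with no filter and -0.016 with all 16 libraries in 1 fit (-0.066 to 0.11 over removals). Cars turned to -0.085 and Lars to -0.11 in replicates 3 and 4 alone (-0.098 to 0.25 and -0.49 to 0.64 over removals), and Hars2 to -0.0096 with library size scaling. In input Hars2 ran from -0.00044 to 0.094 over removals. The cause was not tested. Over all genes, DESeq2 called 144 lower and 156 higher in polysomes, against 3 and 0, and the fit of all 16 libraries called 86 lower and 100 higher in input, against 761 and 890. The lowest member, Wars2, averaged 7.16 CPM in control input, where depth limits precision most.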
